A study of Mus musculus with 2 samples.

Results

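The genes described here encode the proteins that join neighboring cells of the anterior eye segment to each other. They are the claudins (Cldn), the numbered cadherins (Cdh), the connexins of the a, b and c groups (Gja, Gjb and Gjc), the zonula occludens scaffolds (Tjp), and occludin (Ocln). Members were chosen by symbol alone, which gave 66 of the 32285 genes of the count files, namely 23 claudins, 23 cadherins, 16 connexins and 4 scaffold and occludin genes. Levels were read in droplet-based single-cell RNA sequencing of dissociated anterior segments, with 1 library from Foxc2fl/fl control mice and 1 from NC-Foxc2-/- mice (Foxc2fl/fl; Wnt1-Cre). Both libraries carried the floxed Foxc2 alleles, and only the second carried Wnt1-Cre, which drives recombination in neural crest cells and their descendants. The mice were 4 weeks old by the sample labels (3 to 4 weeks in the protocol) and of mixed background, tissue of 4 to 6 mice was pooled for a library, and the iris was removed. For the second library the study chose mice whose eye phenotype was moderate, among mild to severe ones. With 1 library per condition no test between conditions was possible. All intervals below are 95% intervals of counting error only, and none covers differences between mice.

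Tight junctions seal the space between epithelial or endothelial cells. Claudins and occludin span the membrane there, and the zonula occludens proteins tie them to actin. Cadherins hold cells together through calcium-dependent contacts at adherens junctions, where catenins link them to the cytoskeleton. Connexins form gap junction channels that pass ions and small molecules from cell to cell. In the outflow pathway, the endothelium of Schlemm's canal (SC) and the trabecular meshwork (TM) next to it form the main resistance to aqueous humor outflow, and the corneal endothelium and epithelium are barriers of their own.

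Cells were placed in 19 classes, and a level is given as the UMIs (unique molecular identifiers, one per captured transcript) of a gene per 1000000 UMIs of the class (CPM). The libraries kept 10773 control and 10872 NC-Foxc2-/- cells, with medians of 7663 and 6517 UMIs per cell. Fibroblasts, the uveal meshwork, the 3 TM clusters and the endothelial clusters carry the study's names. The other classes were rebuilt and named by their markers. Foxc2 itself was at 130 CPM in control against 2.43 CPM in NC-Foxc2-/- pericyte-like cells (214 and 6 UMIs), and at 46.7 and 0.67 CPM in fibroblasts. In TM-1 it was at 39.4 and 8.76 CPM, and in keratocyte-like cells at 4.56 and 9.85 CPM. Whether the captured end of the transcript lies within the floxed part of the gene was not examined, so these levels do not show that an allele was deleted. Corneal endothelial-like cells (171 control and 9 NC-Foxc2-/-), conjunctival epithelial-like cells (398 and 18), SC and lymphatic endothelial cells (ECs; 84 and 23) and a cluster that the study calls NC-Foxc2-/- ECs (0 and 22) had fewer than 50 cells in a library. Their levels are described, and they were not compared between libraries. Of the limbal epithelial-like cells, 32.2% in control and 27.8% in NC-Foxc2-/- were called doublets, and none of the 10 genes that led their cluster was among the limbal markers used to name it, so values in this class are given as they were counted and, where they were called, also without those cells.

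Of the 66 genes, 46 had at least 50 UMIs over all kept cells, and 32 reached 20 CPM in some class. The 20 genes under 50 UMIs included Cdh7, Cdh12, Cdh16, Cdh18, Cdh20, Cdh22, Gja3, Gja5, Gja6, Gja10, Cldn6, Cldn8, Cldn9, Cldn13, Cldn14, Cldn16, Cldn18, Cldn20 and Cldn24. A further 14 had 50 UMIs or more but stayed under 20 CPM everywhere, among them Cdh4, Cdh8, Cdh9, Cdh10, Cdh15, Cdh17, Cdh24, Cldn2, Cldn12, Cldn15, Cldn17, Cldn22 and Ocln. Conjunctival epithelial-like cells held the highest level of 9 of the 32 genes and Schwann-like cells of 5. In GENCODE vM21 the genes Cdh11, Cdh13, Cdh19 and Tjp1 overlap other annotated genes on the same strand, so their counts can miss or hold reads that the counting could not split.

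The promoters of the genes that the comparison between libraries turns on, and of one neighboring pair that shares its class, are shown next. Each runs over the 250 bases before an annotated start in RefSeq (GRCm38.p6), 5′ to 3′ on the gene's own strand. Capitals mark a GC box (GGGCGG or its reverse complement CCGCCC) or the E-box form CAGGTG (or CACCTG), and letters were searched on both strands. Other forms of the E-box were not searched and are not marked. The forkhead core TGTTTAC was searched as well. The windows are chr4:127314040-127314289 (minus strand) for Gja4, chr14:118787621-118787870 and chr14:118854700-118854949 (plus strand) for the 2 starts of Cldn10, chr5:134985964-134986213 (plus strand) for Cldn3 and chr5:134946935-134947184 (minus strand) for Cldn4.
Gja4: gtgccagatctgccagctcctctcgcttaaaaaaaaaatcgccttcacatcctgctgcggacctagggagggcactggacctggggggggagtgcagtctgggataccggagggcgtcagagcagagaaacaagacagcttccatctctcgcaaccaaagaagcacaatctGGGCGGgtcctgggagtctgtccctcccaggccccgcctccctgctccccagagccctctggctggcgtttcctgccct
Cldn10 (start 1): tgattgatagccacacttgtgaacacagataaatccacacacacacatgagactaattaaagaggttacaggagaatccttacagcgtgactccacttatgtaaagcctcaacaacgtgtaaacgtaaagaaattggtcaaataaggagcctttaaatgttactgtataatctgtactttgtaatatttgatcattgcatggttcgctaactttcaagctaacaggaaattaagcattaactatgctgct
Cldn10 (start 2): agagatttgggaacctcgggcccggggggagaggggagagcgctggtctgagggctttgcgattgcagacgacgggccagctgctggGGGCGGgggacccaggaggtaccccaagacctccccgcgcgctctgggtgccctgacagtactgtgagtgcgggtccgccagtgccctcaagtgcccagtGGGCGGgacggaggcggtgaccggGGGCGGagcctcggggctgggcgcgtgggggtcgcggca
Cldn3: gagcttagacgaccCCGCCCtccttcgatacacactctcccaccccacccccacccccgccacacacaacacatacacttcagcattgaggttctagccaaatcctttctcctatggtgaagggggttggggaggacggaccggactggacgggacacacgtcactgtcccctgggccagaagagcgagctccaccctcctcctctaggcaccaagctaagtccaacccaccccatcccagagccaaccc
Cldn4: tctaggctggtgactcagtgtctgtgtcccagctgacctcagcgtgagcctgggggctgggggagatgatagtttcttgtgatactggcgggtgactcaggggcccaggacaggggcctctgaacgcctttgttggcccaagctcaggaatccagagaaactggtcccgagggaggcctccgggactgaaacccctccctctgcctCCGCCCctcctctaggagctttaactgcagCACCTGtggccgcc
The GC box stood once in the windows of Gja4, Cldn3 and Cldn4, 3 times at the second start of Cldn10 and nowhere at its first. That first window had a GC content of 36% and 4 CpG, against 72.4% and 22 CpG at the second. Over 62 promoters found for 46 of the genes, 24 (38.7%) held a GC box, against 32.7% of all 32851 promoters of the same length. The E-box form searched was in 12 (19.4%) against 17.2%. The forkhead core was in 0 of the 62 and in 3.17% of all promoters, and a missing match says only that these letters are not in this window.

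Among the claudins, Cldn10, which forms paracellular ion pores, was highest in corneal endothelial-like cells. It was at 3884 CPM in control against 2202 CPM in NC-Foxc2-/- cells of that class, of which the second library held only 9. The next class was TM-3, which the study describes as a putative juxtacanalicular population, with 466 CPM over both libraries (95% interval 454 to 477). Cldn5, the main claudin of vascular endothelium, was at 2117 CPM (2029 to 2207) in SC and lymphatic ECs and at 1149 CPM in blood ECs. The next class for Cldn5 was uveal meshwork with 25.1 CPM.

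**Figure D1:**
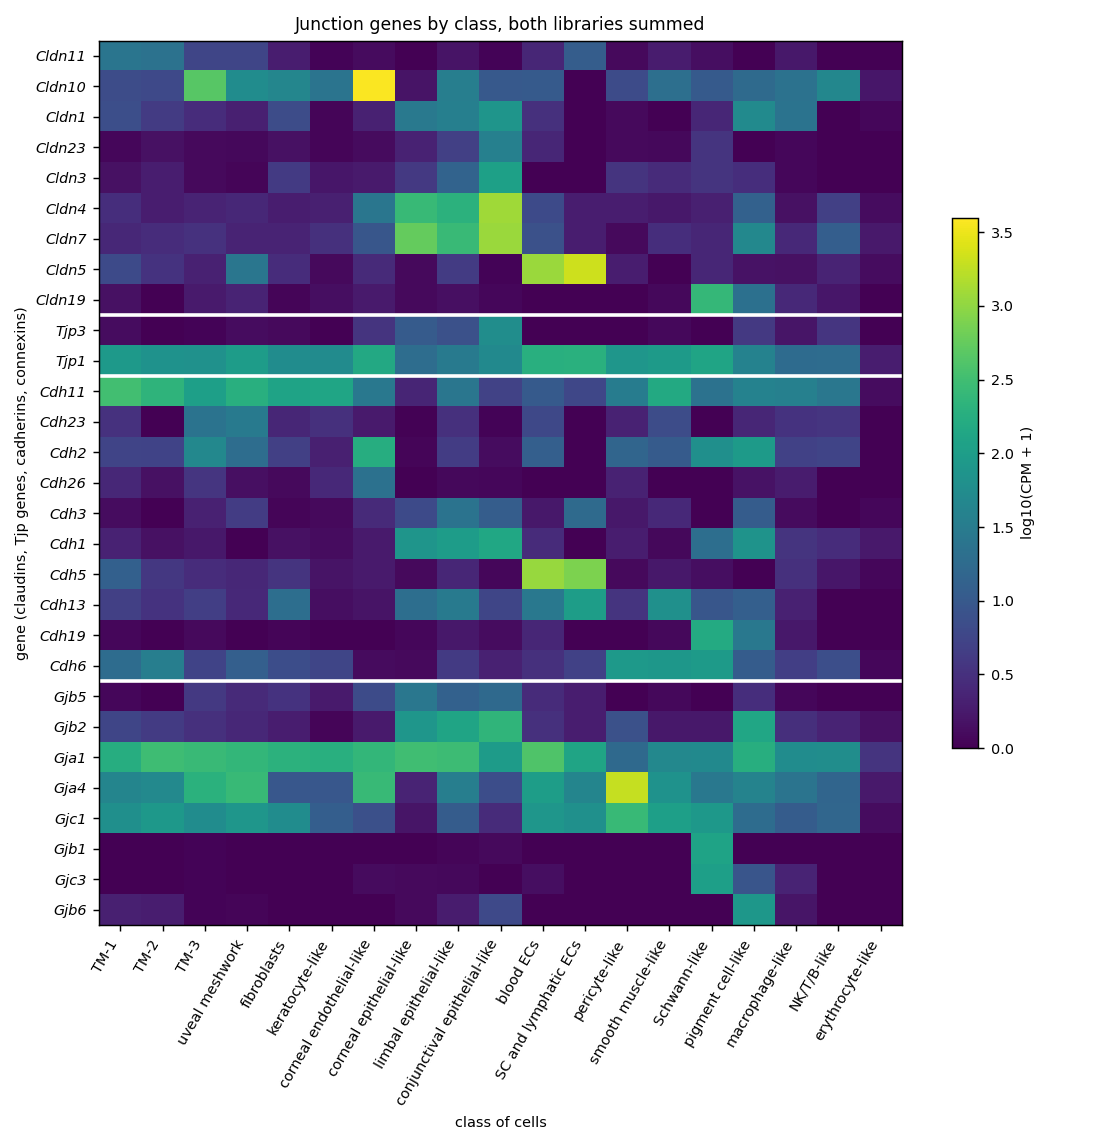
Heat map of 29 genes that reached 20 CPM in some class (rows) by class of cells (columns), with both libraries summed and the color giving log10(CPM + 1), where yellow is high. Cldn4, Cldn7 and Gjb2 are bright in the 3 surface epithelia, Cldn5 and Cdh5 in the endothelial columns (Cldn5 at 2117 CPM in SC and lymphatic ECs), and Gjb1 and Cldn19 in the Schwann-like column.

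A group of 5 claudins was highest in conjunctival epithelial-like cells. Cldn4 stood at 1203 CPM there and 269 CPM in corneal epithelial-like cells. Cldn7 was at 1139 CPM and, in the corneal class, at 555 CPM. Both are claudins of many simple and stratified epithelia. The others were lower and more restricted, with Cldn3 at 112 CPM against 13.0 CPM in the limbal class, and Cldn23 at 36.3 against 3.86 CPM. Cldn1, which seals the epidermal barrier, was at 74.4 CPM there and at 51.9 CPM in pigment cell-like cells. Cldn3 and Cldn4, whose promoters are given above, lie 39280 bases apart on chromosome 5 (GENCODE vM21, GRCm38). They are 1 of 2 pairs, among 6 pairs of such genes within 100000 bases of each other, that shared the class of highest level. Outside the epithelia, Cldn19, a claudin of myelinating Schwann cells, was at 251 CPM in Schwann-like cells and 20.4 CPM in pigment cell-like cells. Cldn11, which is best known from oligodendrocyte and Sertoli cell junctions, reached 24.4 CPM in TM-1, and the interval of its ratio to TM-2 (22.1 CPM) included 1.

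Of the scaffolds, Tjp1 (ZO-1) was at 193 CPM in SC and lymphatic ECs and 184 CPM in blood ECs, and these levels could not be told apart. Tjp3 (ZO-3) was epithelial, with 56.7 CPM in the conjunctival class and 9.86 CPM in the corneal one. Ocln stayed low, with 16.7 CPM in the conjunctival class and 6.86 CPM in the limbal class. It had no UMI in TM-2, corneal endothelial-like, NK/T/B-like and erythrocyte-like cells.

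The cadherins differed in the class that led them. Cdh5 (VE-cadherin), which holds endothelial cells together, was at 1112 CPM in blood ECs and 770 CPM in SC and lymphatic ECs. Cdh11, a mesenchymal cadherin, was led by the meshwork, where TM-1 had 326 CPM and TM-2 had 221 CPM. Cdh2 (N-cadherin) was at 176 CPM in corneal endothelial-like cells and 91.8 CPM in pigment cell-like cells. Cdh2 is the cadherin of many neural and mesenchymal cells, and Cdh1 that of epithelia. Cdh1 (E-cadherin) was at 139 CPM in conjunctival and 97.8 CPM in limbal epithelial-like cells. Cdh3 (P-cadherin) was at 22.2 CPM in the limbal class and 16.5 CPM in SC and lymphatic ECs, a difference within counting error.

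Schwann-like cells led for Cdh19, a cadherin of glia and their precursors, with 158 CPM against 26.2 CPM in pigment cell-like cells. They also held 90.0 CPM of Cdh6, which pericyte-like cells matched within counting error at 87.3 CPM. Cdh13 (T-cadherin), which has a lipid anchor in place of a membrane-spanning stretch, was at 100.2 CPM in SC and lymphatic ECs and 63.2 CPM in smooth muscle-like cells. Cdh23, known from hair cell tip links, was at 29.4 CPM in uveal meshwork and 22.3 CPM in TM-3, and Cdh26 at 21.4 CPM in corneal endothelial-like cells and 2.63 CPM in TM-3.

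Of the connexins, Gja4 (Cx37) was at 1898 CPM in pericyte-like cells and 269 CPM in uveal meshwork. Gjc1 (Cx45), a connexin of vascular muscle and heart, had the same leading class at 263 CPM and was at 108 CPM in smooth muscle-like cells. Cx37 is known from the vessel wall. Whether the smooth muscle-like cells come from vessels was not examined. Gja1 (Cx43) was the widest, with 20 CPM or more in 17 of 19 classes. It was at 411 CPM in blood ECs and 308 CPM in corneal epithelial-like cells.

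The connexins of the epithelia and of glia kept to few classes. Gjb2 (Cx26) was at 227 CPM in conjunctival epithelial-like and 133 CPM in pigment cell-like cells. Gjb6 (Cx30), its neighbor on chromosome 14 at 18601 bases, was led by pigment cell-like cells with 78.7 CPM, and the conjunctival class had 5.17 CPM. Cx26 and Cx30 are often made by the same epithelial cells, and mutations of either cause deafness. Gjb5 was at 25.5 CPM in corneal epithelial-like cells and 15.9 CPM in the conjunctival class. Gjb1 (Cx32), which is mutated in an inherited neuropathy of myelinated nerves, was at 121 CPM in Schwann-like cells and 0.25 CPM in the next class. Gjc3 was at 106 CPM in Schwann-like cells and 7.77 CPM in pigment cell-like cells.

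Within the endothelium, Cldn5 split the clusters that the study separated. It had 0 UMIs in the 33 cells of BEC-1 (BEC, blood endothelial cells), of 203874 UMIs in all, which allows up to 14.7 CPM. The other 5 BEC clusters held 544 to 1884 CPM over both libraries, the NC-Foxc2-/- ECs 1647 CPM and the SC and lymphatic ECs 2117 CPM. BEC-1 was endothelial by other genes, with Cdh5 at 682 CPM and Pecam1, an endothelial adhesion molecule, at 662 CPM. Its level of Selp, which encodes the leukocyte adhesion receptor P-selectin of venules, was 13140.5 CPM. The clusters were called by the study from these same cells, so the split is given as a description.

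Cdh5 ran from 682 CPM in BEC-1 to 1527 CPM in BEC-5 and varied less between these clusters than Cldn5. Gja1 was lowest in SC and lymphatic ECs at 125 CPM and highest in the NC-Foxc2-/- ECs at 667 CPM and BEC-4 at 649 CPM. Gja4, which is a connexin of arterial endothelium too, was at 243 CPM in BEC-6, 170.3 CPM in BEC-2, 30.5 CPM in BEC-5 and 0 in BEC-1.

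**Figure D2:**
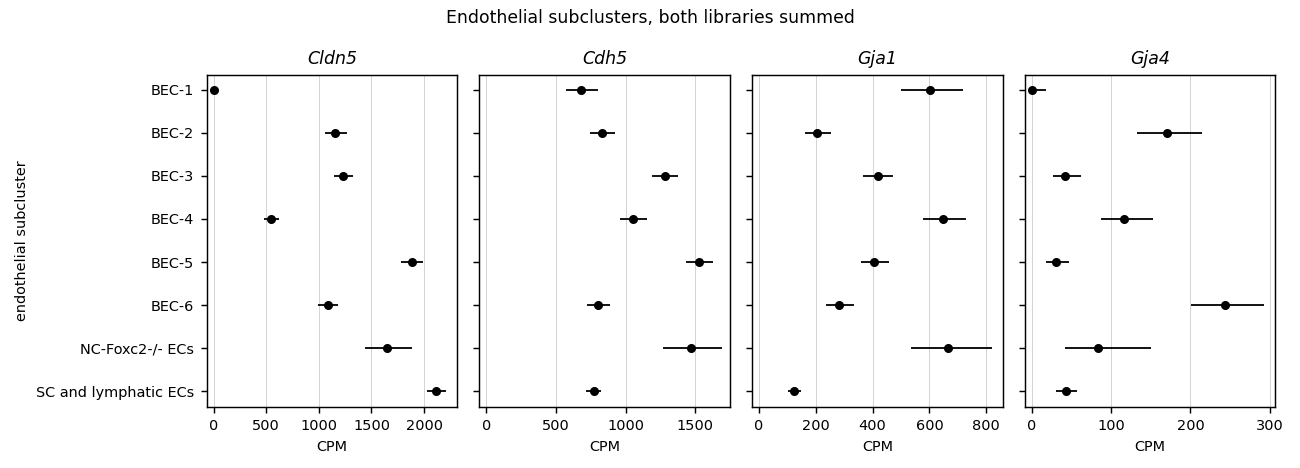
Levels of Cldn5, Cdh5, Gja1 and Gja4 in CPM in the 8 endothelial clusters that the study named, over both libraries, as points with 95% Poisson intervals on linear axes that differ between panels. Cldn5 is at 0 in BEC-1, where Cdh5 is at 682 CPM.

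Schwann-like cells fell into a group that carried the myelin markers, of 55 control and 104 NC-Foxc2-/- cells, and another of 240 and 313 cells. Scn7a, a channel gene of non-myelinating Schwann cells, was at 25.7 CPM in the first and 899.6 CPM in the second. Cldn19 was at 943 CPM in the first and 57.8 CPM in the second. Gjb1 was at 475 CPM against 22.0 CPM, and Cdh1 at 69.0 CPM against 4.93 CPM. Cldn19, Gjb1 and Cdh1 are known from junctions within the myelin sheath itself, and they were found with the myelin genes here. Tjp1 (294 against 77.5 CPM) and Gjc3 (198 against 80.2 CPM) had the same order. Cdh19 ran opposite, at 35.3 CPM in the myelin group and 192 CPM in the other. Cdh2 was at 20.9 against 73.5 CPM and Gja1 at 6.42 against 61.4 CPM. Both groups come from clustering these cells without the 66 genes, and no test was made between them.

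Pigment cell-like cells were a mixture, and their junction genes divided with it. A sub-cluster with Mlana, a melanosome gene of melanocytes, at 8946.9 CPM had 64 control and 6 NC-Foxc2-/- cells. It held 362 CPM of Gjb2, 207 CPM of Gjb6 and 181 CPM of Cdh1. A sub-cluster of 49 control and 25 NC-Foxc2-/- cells, which stayed unnamed, was led by Gja1 (208 CPM) and Cdh2 (171 CPM) over both libraries. Its cells were unlike in the 2 libraries. Optc, a ciliary epithelial gene, was at 1079 CPM in its control cells and had no UMI in those from NC-Foxc2-/- (95% upper bound 15.5 CPM), and Mlana was at 1204 and 0 CPM. In another, with the retinal pigment epithelium gene Rpe65 at 1054 CPM and 28 and 8 cells, Gja1 was at 390.4 CPM and Cldn1 at 117 CPM. The remaining sub-cluster had 37 and 18 cells. The Mlana sub-cluster was the largest in control and the smallest in NC-Foxc2-/-.

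Between the libraries, a gene was called higher or lower in a class when its level in NC-Foxc2-/- was at least 2 times or at most 0.5 of that in control, with at least 50 UMIs over both. The rule sets a size and tests nothing. Of 180 pairs of a junction gene and a class with enough UMIs, 90 had a ratio above 1 and 90 below. In all, 28 (15.6%) were called lower and 6 (3.33%) higher. Over all genes and the same 16 classes, 3.35% of pairs were lower and 3.01% higher.

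TM-3 had 4 of 15 genes lower and 1 higher, where 2.29% of all genes tested were lower and 3.64% higher. Their median log2 ratio was -0.47, against 0.06 over all genes. In fibroblasts 4 of 12 were lower and 1 higher (6.09% and 4.84% of all genes). The limbal class had 5 of 23 lower (6.82% of all genes lower and 1.25% higher). In pigment cell-like cells 5 of 12 were lower and 1 higher (11.7% and 6.86%), with a median log2 ratio of -0.66 against -0.09 over all genes. These 4 classes held 18 of the 28 lower calls.

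In the remaining classes the members called were few. TM-1 had 1 of 9 lower and 1 higher (background 1.7% lower and 2.24% higher), pericyte-like cells 1 of 8 in each direction (3.71% and 5.48%), and keratocyte-like cells 2 of 21 lower and 1 higher (1.32% and 2.35%). Smooth muscle-like cells had 2 of 10 lower (1.81%, with 1.55% higher). One gene was lower in uveal meshwork, of 14 (1.49%, with 2.06% higher), in corneal epithelial-like cells, of 18 (2%, with 2.27% higher), in Schwann-like cells, of 13 (1.6%, with 2.34% higher), and in NK/T/B-like cells, of 2 (4.1%, with 4.64% higher). No member was called in TM-2, of 7 tested (1.88% lower and 2.77% higher), in blood ECs, of 8 (3.53% and 3.33%), or in macrophage-like cells, of 8 (3.38% and 2.15%). In erythrocyte-like cells none had 50 UMIs (1.81% and 11.8% of all genes).

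**Figure D3:**
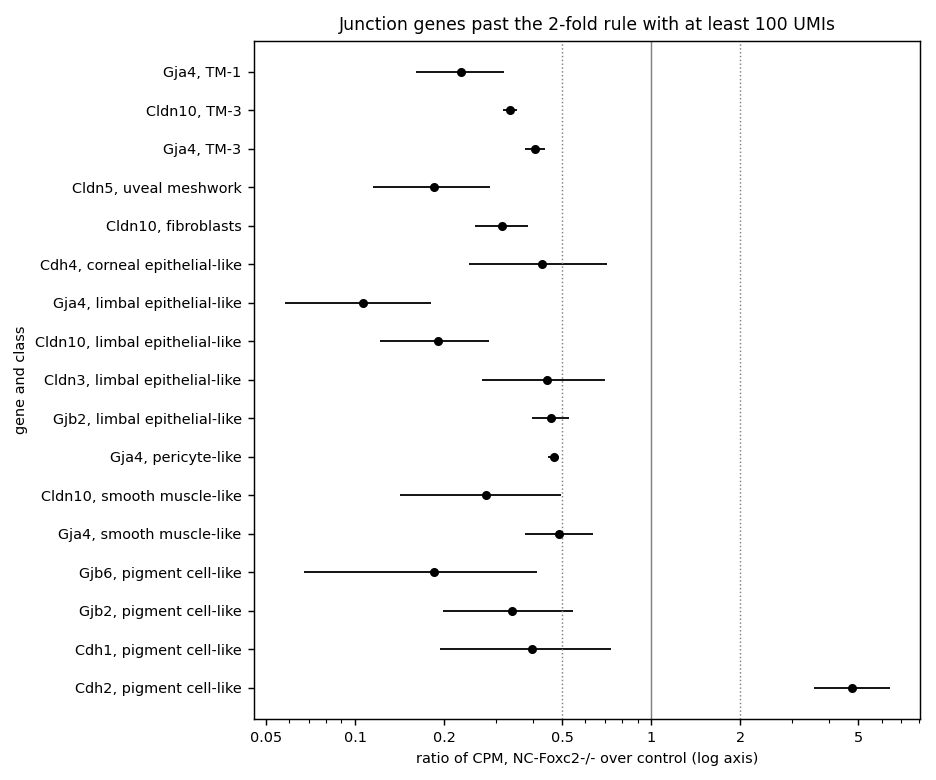
Ratio of CPM in NC-Foxc2-/- over control on a log axis, for 17 pairs of a gene and a class called with at least 100 UMIs, with exact 95% intervals as lines and dotted lines at 0.5 and 2. Of these, 16 lie below 0.5, and Cdh2 in pigment cell-like cells (4.77) lies above 2.

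Gja4 was lower in the most classes. In pericyte-like cells it was at 2788 CPM in control against 1306 CPM in NC-Foxc2-/- (4575 and 3228 UMIs), a ratio of 0.469 (0.448 to 0.490). A Gja4 UMI was found in 89.7% of control and 75.4% of NC-Foxc2-/- pericyte-like cells, at median depths of 4110.0 and 4194 UMIs. With each cell thinned to 1000 UMIs these shares were 78.4% and 56.6%, which does not tell fewer cells with the transcript from less transcript per cell. In macrophage-like cells, which served as the class outside the vessel wall, 4.43% and 5.62% of cells had a Gja4 UMI (medians 6982 and 6639.5 UMIs). In pericyte-like cells the mural genes Rgs5, Kcnj8, Abcc9, Acta2, Myh11 and Notch3 summed to 11549.5 CPM in control against 12939.6 CPM in NC-Foxc2-/-. Among these 6, Kcnj8 was called lower and Myh11 higher.

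In TM-3, Gja4 was at 292.6 CPM in control against 118.6 CPM in NC-Foxc2-/-, a ratio of 0.405 (0.374 to 0.440). In TM-1 it was at 64.6 and 14.7 CPM, a ratio of 0.228 (0.160 to 0.318), and 6.40% and 3.41% of cells had a UMI. These TM-1 shares lie near those of macrophage-like cells, where Gja4 was at 30.8 and 17.6 CPM, and the mural genes of TM-1 summed to 342.4 and 363.9 CPM. In smooth muscle-like cells the levels were 80.7 and 39.5 CPM, a ratio of 0.490 (0.374 to 0.634). Uveal meshwork, at 320.0 and 181 CPM, missed the rule with a ratio of 0.566 (0.517 to 0.620), as did blood ECs at 112.5 and 89.5 CPM.

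Over all classes, Gja4 had enough UMIs in 13, with a ratio below 1 in 11 and a call in 8. It was above 1 in TM-2, where the interval of 1.23 (0.817 to 1.86) included 1, and in keratocyte-like cells at 1.48 (1.23 to 1.77), with 6.61 and 9.74 CPM. Fibroblasts had 21.7 CPM in control against 1.34 CPM in NC-Foxc2-/- (72 and 8 UMIs). In the limbal class it was at 41.1 and 4.38 CPM, a ratio of 0.107 (0.0579 to 0.181), and without called doublets at 21.5 and 0 CPM (158 and 0 UMIs), at least 15.6-fold lower by a floor of 3 UMIs in the second library. The mural genes of the limbal class moved along, with 322.2 and 104.8 CPM, and their part in this value was not tested.

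**Figure D4:**
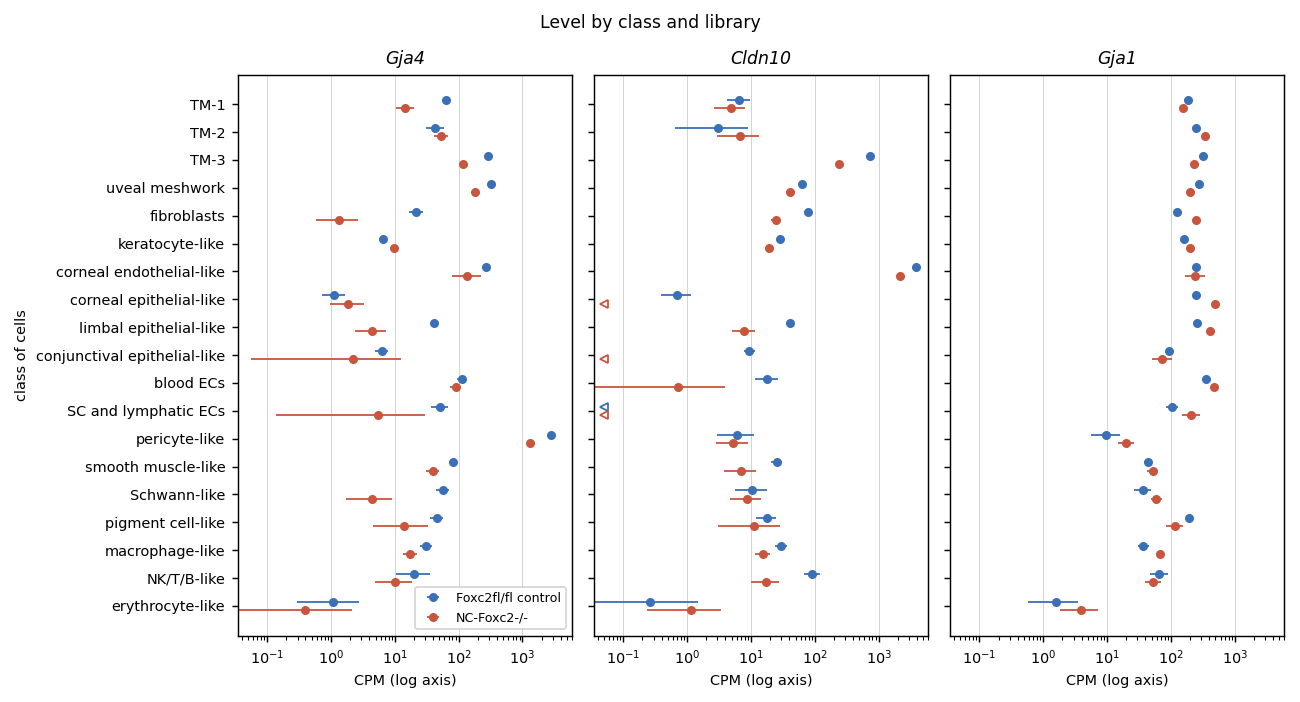
Levels of Gja4, Cldn10 and Gja1 in CPM on a log axis, by class, in the control (blue) and the NC-Foxc2-/- (red) library, with 95% Poisson intervals, where an open triangle at the left edge marks no UMI. In pericyte-like cells Gja4 lies at 2788 and 1306 CPM, and in TM-3 the levels of all 3 genes lie lower in NC-Foxc2-/-.

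Cldn10 was the other gene with lower levels in many classes. In TM-3 it was at 729.7 CPM in control against 244.1 CPM in NC-Foxc2-/- (4567 and 1819 UMIs), a ratio of 0.334 (0.317 to 0.353). After thinning, a UMI was found in 36.7% and 14.2% of TM-3 cells, and in 1.41% and 0.805% of macrophage-like cells. In fibroblasts it was at 78.3 and 24.5 CPM, a ratio of 0.313 (0.253 to 0.384). It had a ratio below 1 in 8 of 8 compared classes with enough UMIs, and 5 were called. The classes share their libraries, so these ratios are not independent of each other.

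Some of these values moved when called doublets were left out. In the limbal class Cldn10 was at 41.2 and 7.82 CPM (ratio 0.190), and without called doublets at 10.6 and 4.16 CPM. Smooth muscle-like cells had 25.5 and 7.04 CPM (ratio 0.276), and the ratio was 0.627 without called doublets and 1.04 after thinning. Thinning left a UMI in only 6 of 538 control and 3 of 260 NC-Foxc2-/- smooth muscle-like cells. Corneal endothelial genes, which mark the class with the most Cldn10, summed in TM-3 to 1294.7 CPM in the control and 738.4 CPM in the NC-Foxc2-/- library. Of the 6 genes of that list Slc4a11, Car3 and Npy were called lower in TM-3, and their part in the Cldn10 value was not tested.

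Cdh2 in TM-3 stood at 58.6 and 35.7 CPM and missed the rule at a ratio of 0.609 (0.518 to 0.715).

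The cells of the study's TM-3 fell mostly into 2 rebuilt clusters. When all cells were clustered without the 66 genes, one cluster with the TM-3 markers (Myoc, Chil1 and Chad among its leading genes) held 80.3% of the control TM-3 cells (684 cells) and 54.7% of those from NC-Foxc2-/- (625 cells). A second cluster stayed unnamed, since it held equal shares of the TM-3 and fibroblast markers (4 of 5 TM-3 markers). It was led by Cdkn2a, C1qtnf3 and Spink8 and held 13.6% (116 cells) and 37.7% (430 cells). This split was made after the data were seen. In the TM-3 cells of the second cluster Gja4 had 2 control and 3 NC-Foxc2-/- UMIs, and Cldn10 was at 36.5 and 18.7 CPM. These cells were unlike in the 2 libraries. Chil1 was at 2620 and 487.3 CPM, Chad at 763.2 and 170.5 CPM, and Edn3 at 796.3 and 175.5 CPM. Myoc was at 1930 and 843 CPM and Tnmd at 603.3 and 517.5 CPM, while Fmo2 ran opposite at 13.9 and 31.5 CPM. The part of this makeup in the values of the second cluster was not tested.

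In the TM-3 cells of the first cluster alone, Cldn10 had 835.6 CPM in the control library and 359.6 CPM in the NC-Foxc2-/- one, a ratio of 0.430 (0.407 to 0.455). Gja4 was at 331.5 and 182.7 CPM, and its ratio of 0.551 (0.508 to 0.598) no longer passed the rule. Cldn10 thus still passed the rule in these cells, and Gja4 lay below 1 with an interval that did not reach 1. Cldn11 ran the other way between the clusters, with 1.14 and 0.632 CPM in the first and 1.74 and 22.4 CPM (1 and 49 UMIs) in the second. Cdh2 was at 66.95 and 51.0 CPM in the first, a ratio of 0.762 (0.644 to 0.900), and had 2 and 15 UMIs in the second.

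**Figure D5:**
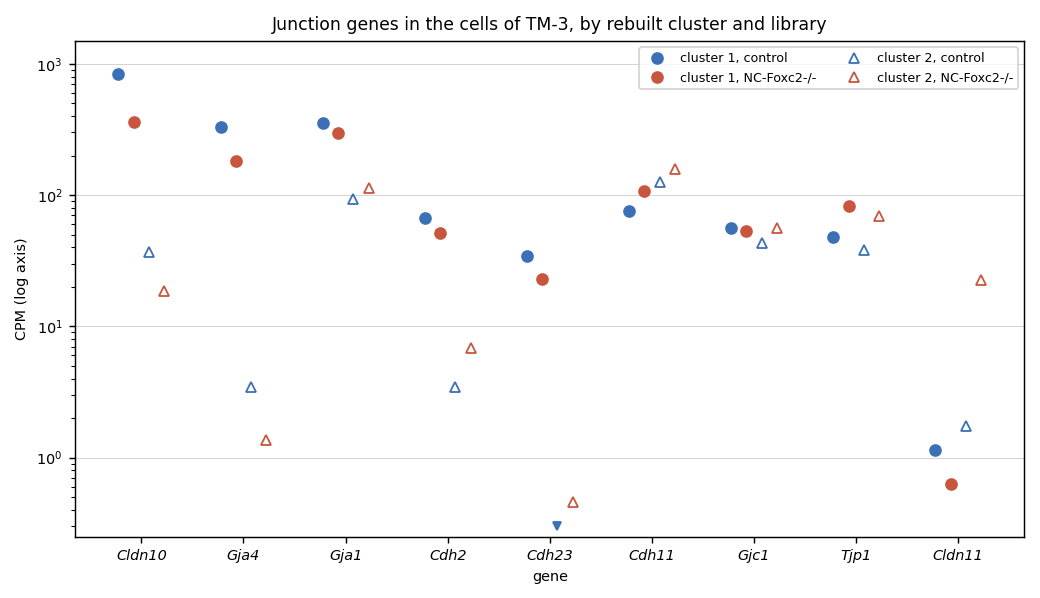
Levels in CPM on a log axis of 9 genes in the TM-3 cells of 2 rebuilt clusters (circles for cluster 1, triangles for cluster 2), with control in blue and NC-Foxc2-/- in red and a filled triangle at the lower edge where there was no UMI. In cluster 1 Cldn10 is at 835.6 CPM in control against 359.6 CPM in NC-Foxc2-/-, and in cluster 2 Gja4 is at 3.48 and 1.37 CPM.

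In uveal meshwork, Cldn5 was at 35.9 CPM in control against 6.66 CPM in NC-Foxc2-/- (213 and 23 UMIs), a ratio of 0.185 (0.115 to 0.286). A UMI was found in 5.46% and 1.01% of its cells, against 0.179% and 0.424% of keratocyte-like cells, which had median depths of 15879 and 14485 UMIs (uveal 5454 and 5441.5). Cdh5 had only 5 and 9 UMIs in the same uveal cells, and the endothelial genes Pecam1, Egfl7, Tie1, Emcn and Ptprb summed to 116.5 and 92.4 CPM. In the endothelium itself, blood ECs had 1490 CPM of Cldn5 in control and 815.5 CPM in NC-Foxc2-/-, a ratio of 0.547 (0.511 to 0.586) that missed the rule. The makeup of blood ECs differed between the libraries. BEC-5 held 43 control and 14 NC-Foxc2-/- cells, and BEC-1, which had no Cldn5 UMI, held 8 and 25. The part of this makeup in the Cldn5 value was not tested. The ratio lay below 1 in each BEC cluster with Cldn5. The levels were 1683 and 995 CPM in BEC-2 (12 control and 59 NC-Foxc2-/- cells). They were 915.5 and 320.1 CPM in BEC-4 (15 and 51 cells) and 1931 and 1689 CPM in BEC-5. No BEC cluster had, in both libraries, the number of cells required of a compared class, so these levels are given as a description. Cdh5, by contrast, was at 1145 and 1079.8 CPM in blood ECs.

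The scaffold Tjp1 was called in no compared class, but its ratio was above 1 in 14 of 14 compared classes with enough UMIs. It ran from 1.08 (0.947 to 1.24) in uveal meshwork, where the levels were 95.1 and 103 CPM, to 1.72 (1.37 to 2.17) in Schwann-like cells, with 88.7 and 152 CPM. Ocln had enough UMIs in only 2 compared classes, and was called in neither.

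Cdh11 had its highest level in TM-1 but reached 20 CPM in 14 classes. It was at 325.2 CPM in control against 327.1 CPM in NC-Foxc2-/- TM-1 cells, a ratio of 1.01 (0.922 to 1.10). Its ratio was above 1 in 11 of 12 classes, with 84.8 and 125 CPM in TM-3 (1.47, 1.32 to 1.64). Gja1 had a ratio above 1 in 10 of 15 classes. It was at 251.7 CPM in control against 495.4 CPM in NC-Foxc2-/- corneal epithelial-like cells (1.97, 1.88 to 2.06) and at 126.1 and 248.6 CPM in fibroblasts (1.97, 1.77 to 2.20), just short of the rule. In TM-3 Gja1 was at 321.2 and 232 CPM, a ratio of 0.723 (0.678 to 0.771). In the TM-3 cells of the first rebuilt cluster alone Gja1 was at 351.2 and 297 CPM, a ratio of 0.8455 (0.788 to 0.907). The second rebuilt cluster, whose marker levels differed between the libraries, held 116 control and 430 NC-Foxc2-/- TM-3 cells. Gja1 was lower there, at 93.88 and 112.9 CPM, and the interval of its ratio (0.893 to 1.65) included 1. The part of this makeup in the TM-3 ratio of Gja1 was not tested.

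Pigment cell-like cells moved in both directions. Gjb2 was at 150.1 CPM in control against 50.9 CPM in NC-Foxc2-/-, a ratio of 0.339 (0.198 to 0.546). Gjb6 was at 91.4 and 17.0 CPM with a ratio of 0.185 (0.0670 to 0.413), and Cdh1 at 78.6 and 31.1 CPM with a ratio of 0.396 (0.193 to 0.731). Cdh2 was called higher, with 55.7 and 265.6 CPM, a ratio of 4.77 (3.55 to 6.41). After thinning the ratios of Gjb2 (0.679, at 160 and 108.7 CPM) and Cdh1 (0.652, at 66.7 and 43.5 CPM) missed the rule. Both then rested on few UMIs, and the thinned Cdh1 ratio lay within the interval given above. The genes that were lower had their highest levels in the Mlana sub-cluster, with 64 and 6 cells. Cdh2 was highest in the unnamed sub-cluster, with 49 and 25 cells, where Cdh2 was at 108 and 360.5 CPM. These cells were not of 1 kind in both libraries, since Optc and Mlana had no UMI in the NC-Foxc2-/- ones and Scn7a was at 18.2 and 360.5 CPM, and the part of this makeup in the Cdh2 value was not tested. Epithelial keratin genes in this class also differed, and the 8-gene epithelial list (which includes Krt5, Krt14 and Krt12) summed to 2418.6 and 211.9 CPM.

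Other calls with at least 100 UMIs were in the surface epithelia. In the limbal class Gjb2 was at 143.4 CPM in control against 65.7 CPM in NC-Foxc2-/- (ratio 0.458, 0.395 to 0.529), and without called doublets at 178.6 and 79.9 CPM. The call was lost at a clustering resolution of 0.4 (0.658) and on division by the median ratio of all genes (0.504). Cldn3 was at 14.8 and 6.57 CPM in the limbal class, a ratio of 0.444 (0.268 to 0.700), and at 18.9 and 7.85 CPM without called doublets. Cdh4 (R-cadherin) was at 6.21 and 2.66 CPM in corneal epithelial-like cells, a ratio of 0.428 (0.242 to 0.712). After thinning the ratio was 1.53, at 3.84 and 5.85 CPM, and it rested on few UMIs. The 13 calls under 100 UMIs comprised 9 lower and 4 higher ones, and the 4 higher were Cdh5 in TM-1, Cdh9 in keratocyte-like cells, Cldn11 in TM-3 and Gja1 in pericyte-like cells.

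Partners of these proteins at the membrane and inside the cell were counted by the same rule. Over all genes and the 16 classes, 3.01% of pairs were higher and 3.35% lower. Of 19 tight junction partners 18 were in the files, and 7 of 131 pairs were higher (5.34%) and 3 lower (2.29%). Magi3, a scaffold, was higher in pericyte-like, smooth muscle-like and pigment cell-like cells, and the adhesion molecule Jam2 was higher in blood ECs and lower in TM-2. Of 15 catenins, nectins and related genes, 1 of 146 pairs was higher (0.685%) and 7 were lower (4.79%). Of these 7, 3 were Nectin2, in TM-3, uveal meshwork and pericyte-like cells. Of 13 desmosome genes, 0 of 51 pairs were higher and 5 lower (9.8%). Of the 7 other connexins and pannexins, Panx1 was higher in fibroblasts, the only call among 8 pairs. No test compared these shares with those of the 66 genes or of all genes.

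Genes that mark other cell types also differed between the libraries within classes. Over all genes, 3.35% of pairs were lower and 3.01% higher. Erythroid genes (4) were called lower in 23 of 62 pairs and higher in 10. In TM-2 their sum was 16982.5 CPM in control against 302.5 CPM in NC-Foxc2-/-, and in TM-1 1785.4 and 4563.8 CPM. Epithelial genes (8) were lower in 30 of 70 pairs and higher in 0. Immune genes (6) were lower in 11 of 33 and higher in 4, Schwann genes (5) lower in 5 of 19 and higher in 2, endothelial genes (5) lower in 2 of 18 and higher in 0. Mural genes (6) were lower in 11 of 58 and higher in 10, and corneal endothelial genes (6) lower in 12 of 55 and higher in 7. These counts include the classes to which the genes belong. A level summed over a class cannot separate fewer cells with a transcript from fewer transcripts per cell, and the part of carried-over RNA in the values above was not tested.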

How the data were processed

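Single-cell RNA sequencing libraries of 1 control and 1 NC-Foxc2-/- pool were analysed as mapped by the labels. For each library the authors deposited UMI counts per gene and barcode from Cell Ranger 4.0.0 (per the submitters' processing notes) on mm10, with no normalization. The annotation release was not given in the sources used here. Beside these, the authors deposited a file of both pools that also holds counts. They differ from those of the libraries for 20 genes, so sums came from the files of each library. That second file served the filters on cells and genes, and the cell totals that scaled values for joining names and for clustering. The libraries held 11285 and 11656 barcodes, and the kept cells had no more than 8% mitochondrial UMIs (119599692 and 94644512 UMIs). The 52 barcodes found in both libraries were told apart by library, and no column of another sample was used.

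Names of the TM, uveal, fibroblast and endothelial clusters were joined from the source data of the study by matching normalized values to single cells within 0.55 of the last printed digit, which placed 98.5% to 100% of each cluster's cells. The remaining classes were rebuilt in scanpy 1.11.5 (15 principal components, 25 neighbors, resolution 0.8, random seed 1, igraph 0.11.9) from 2305 of 2322 highly variable genes, since 17 of the 66 genes were left out. A cluster was named when at least 3 markers, and 50% or more of the list, were 3-fold above the other cells, unless over 40.0% of its cells were called doublets, markers of another type led it or another list tied with the best one. This naming rule was set after the clusters were seen. Clusters without a name held 699 control and 1328 NC-Foxc2-/- cells. Doublets were called by Scrublet in 3.81% and 4.77% of cells and kept.

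UMIs were summed per class and library. CPM have exact Poisson intervals, ratios exact conditional binomial (Clopper-Pearson) intervals, and shares of cells exact binomial intervals, all at 95% and for counting error only. At 0 counts, the limit of Cldn5 in BEC-1 and the fold of Gja4 in the limbal class use 3 counts. The bound of Optc is the upper end of the exact Poisson interval. Only the 16 classes with at least 50 cells in each library were compared. Genes are named in their highest and next class where they had 50 UMIs and 20 CPM in some class, and between libraries where called with 100 UMIs, besides Gja1, Cdh11, Cdh5, Cldn5, Cldn10, Tjp1 and Ocln. Other genes are named where a value of theirs stands beside such a result, chosen after their values were seen. Some genes that the rule names are not reported here, but the counts over the 66 genes include them. The genes, gene lists and rules were chosen with earlier results of these data known. Alternatives covered resolutions 0.4 and 1.2, keeping the 66 genes in the clustering, rebuilt names alone, removal of called doublets, a 5% mitochondrial limit, thinning to 1000 UMIs, division by the median ratio, minimums of 20 and 100 UMIs, and a 1.5-fold rule. The scripts were tested on simulated data. Software was SciPy 1.17.1 and NumPy 2.4.6 for intervals and sums, with matplotlib 3.10.9 and pandas 2.3.3 under Python 3.11.15.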

Additional observations from a re-analysis of the deposited data

Results flagged for a closer look

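Gja1 and Cdh2 moved in opposite directions in different classes, each with an interval of the ratio that excluded 1. The Gja1 ratio of NC-Foxc2-/- over control was 1.97 (95% interval 1.77 to 2.20) in fibroblasts and 0.604 (0.426 to 0.838) in pigment cell-like cells. The Cdh2 ratio was 4.77 (3.55 to 6.41) in pigment cell-like cells and 0.609 (0.518 to 0.715) in TM-3. In the TM-3 cells of the first rebuilt cluster alone the Cdh2 ratio was 0.762 (0.644 to 0.900). Pigment cell-like cells were a mixture that differed between the libraries. The part of cell makeup in these ratios was not tested. With 1 library per condition the difference between classes was not tested for either gene.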

How the results depend on the processing

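No paired analysis was possible because each condition has 1 library. Over all classes, 6 of 180 pairs of a gene and a class were called higher and 28 lower (3.01% and 3.35% over all genes). These counts became 2 and 9 with each cell thinned to 1000 UMIs, 11 and 46 at a minimum of 20 UMIs, and 33 and 44 with a 1.5-fold rule, and at 100 UMIs 2 were higher. At the alternative settings, here and for TM-3 below, the pairs tested and the share over all genes were not counted. The counts there show only how the calls depend on the setting. In TM-3, where 1 was higher and 4 were lower, the higher calls were 0 with rebuilt names alone, 0 after thinning, 3 at 20 UMIs, 0 at 100 UMIs and 2 with the 1.5-fold rule, and 1 was lower with rebuilt names alone, which leave out the unnamed cluster tied between TM-3 and fibroblast markers. That last call was Cldn10, and the ratio of Gja4 (0.556) then missed the rule. Thinning turned the ratio of Cdh4 in corneal epithelial-like cells to 1.53 and of Cldn10 in smooth muscle-like cells to 1.04, and these are the only 2 of 163 recomputed ratios that changed direction. Both rest on few UMIs and give no clear direction. Thinned Cldn10 had a UMI in 6 of 538 control and 3 of 260 NC-Foxc2-/- cells, and thinned Cdh4 was at 3.84 and 5.85 CPM. The cause of these changes was not tested. In 152 of the 163 the ratio passed the rule. Among others, the leading class of Gjb5 and Cdh3 changed at resolution 0.4, of Cdh13 with rebuilt names, and of Tjp1, Cdh3 and Cdh6 after thinning. Depth limits the 20 genes under 50 UMIs, and classes with under 50 cells in a library allow no comparison.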
